A study of Mus musculus with 64 samples.

Results

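The Rab GTPases were taken as the rows of the batch-corrected count table whose gene symbol is Rab followed by a number and at most 1 letter and 1 further digit, which gave 59 genes of 25239. Each library comes from about 600 tdTomato-high microglia sorted from a single retina of a Cx3cr1CreER:R26-tdTomato +/- mouse, in which tamoxifen, given as eye drops and followed by a washout of weeks before use, switches on the red protein in cells that express *Cx3cr1*. Mice were naive, with no injection of any kind, or were collected 12 days (D12) or 28 days (D28) after intravitreal AAV2 without a transgene at 1e10 genome copies per eye. By the paper's methods this vector carried an inhibitory sequence against TLR9, a sensor of viral DNA. They were 3, 9 or 18 months old and of both sexes, which gives 18 groups of 2 to 4 libraries and 62 libraries in all. All groups share the genotype and the tamoxifen treatment, and no group received a vehicle injection.

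Rab proteins are small GTPases that sit on the membranes of vesicles and organelles and recruit the proteins that move, tether and fuse them. Each is switched on by a guanine nucleotide exchange factor (GEF), which loads GTP, and switched off by a GTPase-activating protein (GAP), while a GDP dissociation inhibitor (GDI) takes it off the membrane. In microglia, Rab proteins of endosomes, phagosomes and lysosomes handle engulfed material, and those of the Golgi and of recycling endosomes carry newly made and returned proteins to the surface.

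The question was whether Rab genes change at D12 and whether that change differs in 18-month-old mice. Library totals ran from 1468478 to 9836173 corrected counts (median 4188992), so that 3 counts, the smallest amount read as a level here, correspond to 0.361 to 2.12 CPM (counts scaled to a common library total). Levels are CPM scaled by TMM (a correction for library composition) or log2 CPM with a prior count of 2. All 9 microglia markers were detected at every day, and their summed level was 29270 to 51690 CPM in naive, 8349 to 34930 at D12 and 16740 to 44370 CPM at D28 libraries. Of the 59 genes, 55 passed the filter on low counts in the fit over all libraries. The other 4, *Rab17*, *Rab40b*, *Rab44* and *Rab9b*, reached at most 0.481, 1.82, 0.318 and 0.433 CPM in any library. In fits of the 3- and 18-month-old mice of 1 sex, 50 passed in females and 48 in males.

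A few libraries differed from their groups in marker levels, Rab levels or labels. In 18-month-old females at D12, replicates 1 and 2, collected on the first of 2 collection days, had microglia marker sums of 34930 and 30030 CPM and T cell marker sums of 3.67 and 15.5 CPM. Replicates 3 and 4, collected on the second day, had 14250 and 14130 CPM of microglia markers and 519 and 257 CPM of T cell markers. The first pair, called here the 2 libraries that stood apart, therefore lay within the range of naive libraries in microglia markers. In 9-month-old males at D12, replicate 2 had 28790 CPM of microglia markers, against 8760 to 15870 CPM in the other 3. In 18-month-old males at D28, replicate 4 carries labels of both days and was kept at D28 by its title. In 18-month-old naive females, replicate 1 had 114 CPM of monocyte markers (29.9 and 9.69 in the other 2), 7.43 CPM of B cell markers (116 and 81.0) and 242 CPM summed over late endosome, lysosome and autophagy Rab genes (486 and 420). In 9-month-old naive females, replicate 1 had 32.55 CPM of B cell markers (92.78 and 87.38 in the other 2) and 584 CPM of Muller glia markers (328 and 371). Its Rab genes of lysosome-related organelles summed to 45.03 CPM (133.7 and 81.59). In 18-month-old naive males, replicate 2 had 216 CPM of T cell markers, against 1.19 to 119 CPM in the other 3. Some of the results that rest on these libraries are also given without 1 or more of them. The omission of 18-month-old naive male replicate 2 is covered only by ranges over single omissions.

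**Figure D1:**
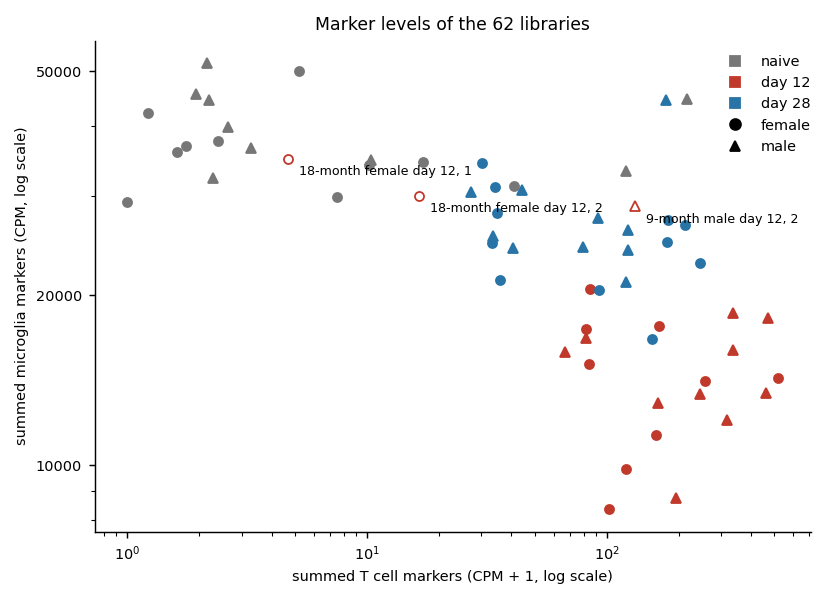
Summed level of T cell markers (x axis, CPM + 1, log scale) and of microglia markers (y axis, CPM, log scale) in the 62 libraries, colored by day, with circles for females and triangles for males. Open symbols mark 18-month-old female D12 replicates 1 and 2 (34930 and 30030 CPM of microglia markers) and 9-month-old male D12 replicate 2 (28790 CPM), which lie above all other D12 libraries.

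In naive microglia the most abundant Rab transcripts per length were those of recycling, the early secretory path and late endosomes. Per kilobase of the longest transcript, *Rab14*, of recycling and Golgi membranes, had a median of 139 CPM per kb over 19 naive libraries (61.3 to 153). It was followed by *Rab11a*, of recycling endosomes, at 136 (103 to 161), and by *Rab2a*, of the ER to Golgi path, at 129 CPM per kb (69.1 to 168). *Rab24*, linked to autophagy, had 125 CPM per kb, *Rab1a*, needed for ER to Golgi transport, 93.8, *Rab4b*, of recycling endosomes, 91.1, and *Rab7*, of late endosomes, 58.2. The ranges of the first 4 in this order overlap. Those of *Rab1a* (68.2 to 129), *Rab4b* (33.3 to 116) and *Rab7* (41.3 to 133) overlap them too. The genes were measured in the same libraries, and whether neighbours differ was not tested. *Rab32* held the eighth place at 46.1 CPM per kb (16.3 to 81.1).

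Sequences near the start are given for 3 genes that passed the D12 test at every age. Of these, *Rab20* and *Rab32* rose and *Rab39* fell. They come from RefSeq windows of 250 bases before the start on GRCm38.p6 (the assembly of mm10), which matched 48 of the 59 genes. They were cut where the GENCODE gene begins, and each is read on the minus strand. *Rab20* lies on chr8:11478711-11478890 (180 bases, 62.2% G or C), *Rab32* on chr10:10558266-10558457 (192 bases, 51.6%) and *Rab39* on chr9:53706233-53706482 (250 bases, 68.8%).
Rab20: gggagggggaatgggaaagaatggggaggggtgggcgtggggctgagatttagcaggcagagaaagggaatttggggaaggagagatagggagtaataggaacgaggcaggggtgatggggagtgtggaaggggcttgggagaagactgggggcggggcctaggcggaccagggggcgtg
Rab32: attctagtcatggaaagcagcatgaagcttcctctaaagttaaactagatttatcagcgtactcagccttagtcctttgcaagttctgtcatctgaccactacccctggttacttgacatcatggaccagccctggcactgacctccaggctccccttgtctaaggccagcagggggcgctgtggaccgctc
Rab39: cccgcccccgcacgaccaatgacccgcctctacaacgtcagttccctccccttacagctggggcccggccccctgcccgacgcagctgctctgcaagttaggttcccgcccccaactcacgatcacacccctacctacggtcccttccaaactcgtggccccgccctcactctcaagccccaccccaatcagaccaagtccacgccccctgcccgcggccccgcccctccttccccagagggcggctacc

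Both strands of each full 250-base window were searched for 5 motifs: the E-box CACGTG, a PU.1 motif GAGGAAGT, an interferon-stimulated response element (ISRE), a GAS element TTCNNNGAA and a cAMP response element TGACGTCA. The *Rab20* window held an E-box and the *Rab32* window a PU.1 motif. Both lie past the GENCODE gene start, in the 70 and 58 bases cut from the sequences above. They are shown here in capitals within 30 bases at chr8:11478669-11478698 and chr10:10558232-10558261.
Rab20 E-box: cggccgggcaccCACGTGgtcgcagggctg
Rab32 PU.1: tagccagggaaGAGGAAGTgccgggaccag
The *Rab39* window held none of the 5. The 48 matched Rab genes have 60 windows. An E-box was found in 6.02% of all 32851 windows and in 5 of the 60 Rab windows (8.33%). The PU.1 motif was found in 2.44% of all windows and in 2 Rab windows (3.33%), of *Rab32* and *Rab2b*. The ISRE was found in 2.98% of all windows and in 1 Rab window (1.67%), of *Rab19*. The GAS element was found in 7.02% of all windows and in 5 Rab windows (8.33%). The cAMP response element was found in 1.55% of all windows and in 2 Rab windows (3.33%), of *Rab25* and *Rab5a*. *Rab7b* was not among the matched genes.

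At D12 Rab genes moved in both directions. Over the 3 ages, 17 of the 55 genes tested passed at 1 age or more, 12 higher and 5 lower than naive, and 5 passed at all 3 ages: *Rab20*, *Rab32* and *Rab13* were higher and *Rab39* and *Rab6b* lower. These are 30.9% and 9.09% of the Rab genes tested, beside 29.4% and 6.91% of all genes tested, shares near the background. The test was edgeR's quasi-likelihood test of the mean of the female and the male change against 0, with Benjamini-Hochberg adjustment over all 13584 genes tested and an adjusted p under 0.05. At 3 months 8 Rab genes passed (14.5%), beside 16.6% of all genes tested. At 9 months 11 passed (20%, beside 18.4%), and at 18 months 11 passed (20%, beside 15.6%). These shares lie near the background at each age. In such bulk libraries fewer cells of a type and less RNA per cell cannot be told apart. By direction, 5 rose and 3 fell at 3 months (all genes, 9.42% and 7.23%), 7 rose and 4 fell at 9 months (10.5% and 7.91%), and 8 rose and 3 fell at 18 months (9.53% and 6.02%).

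**Figure D2:**
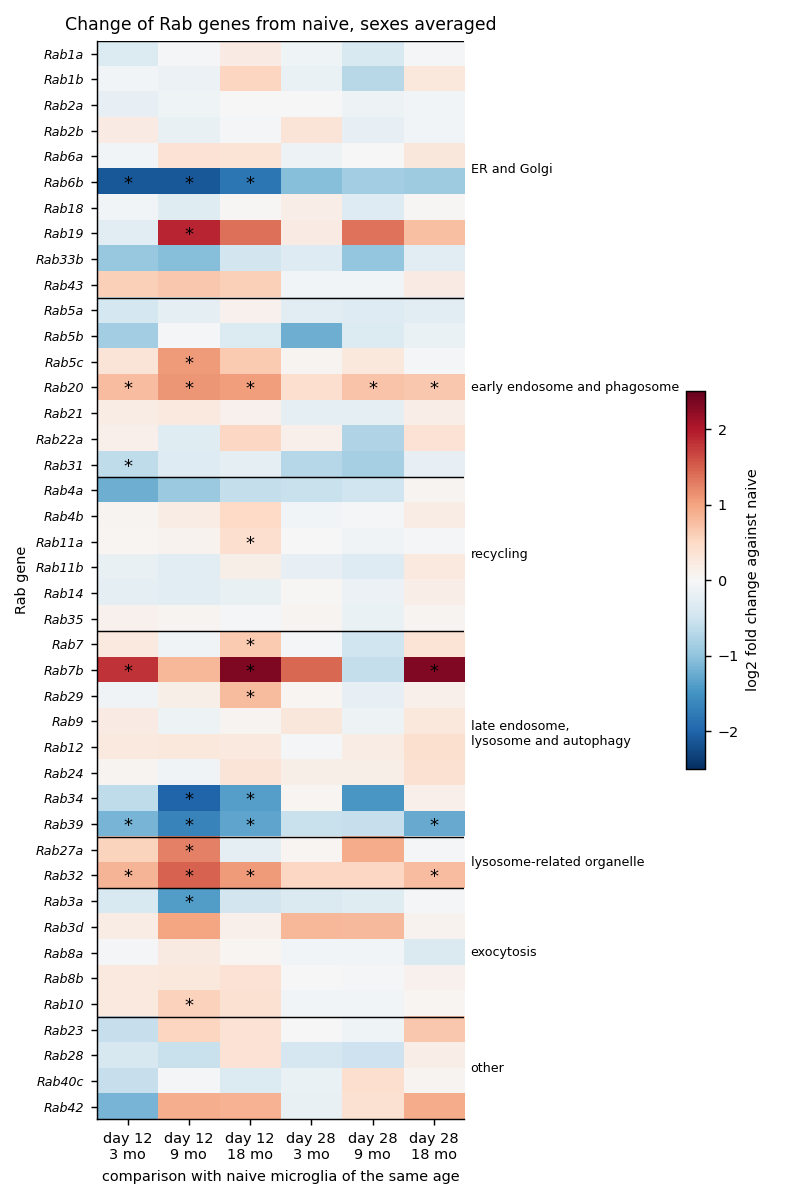
Fitted log2 fold change against naive microglia of the same age (color, red higher, blue lower, mean of both sexes) of 42 Rab genes, in rows grouped by the membrane they act on, with 1 column for each day and age. Stars mark an adjusted p under 0.05, and 13 genes with a group at or under 3 counts in every library are left out. *Rab20*, *Rab32*, *Rab39* and *Rab6b* carry a star at D12 in all 3 age columns.

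Of the Rab genes of early endosomes and phagosomes, *Rab20*, which acts in the maturation of phagosomes, rose at every age. At 3 months its level was 4.96 to 5.41 log2 CPM in 7 naive libraries (median 5.14) and 5.70 to 6.42 in 8 D12 libraries (median 5.92). In 18-month-old mice it was 4.37 to 5.49 in 7 naive libraries (median 5.16) and 5.52 to 6.54 in 7 D12 libraries (median 6.03). All D12 libraries lay above all naive libraries of their age, at 9 months too. The log2 fold change was 0.78 ± 0.17 (SE) at 3 months, 1.1 ± 0.19 at 9 months and 1.04 ± 0.17 at 18 months, with adjusted p of 0.000391, 2.27e-05 and 8.05e-06 by edgeR's quasi-likelihood test. It was 1.18 at 18 months without the 2 libraries that stood apart. *Rab5c*, of early endosomes, was 6.76 to 19.5 CPM in 5 naive libraries and 17.8 to 37.2 CPM in 7 D12 libraries at 9 months, and rose by 1.06 ± 0.27 on the log2 scale (edgeR adjusted p = 0.00357). *Rab31*, of the path between Golgi and endosomes, was lower at 3 months (-0.64 ± 0.23, edgeR adjusted p = 0.0416), with 60.2 CPM as the median of naive and 45.0 CPM of D12. That call ended without any 1 of 10 of the 15 libraries of that comparison, with log2 fold changes of -0.56 to -0.72 over all 15 omissions.

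Among Rab genes of late endosomes, lysosomes and autophagy, *Rab7b*, of traffic from late endosomes to the Golgi, rose and *Rab39*, which acts in lysosomal and autophagic transport, fell. *Rab7b* was 3.41 to 11.4 CPM in naive libraries at 3 months and 8.91 to 35.6 CPM at D12, and 0 to 11.7 CPM in naive and 24.2 to 52.0 CPM at D12 at 18 months. The groups did not overlap at 18 months. The log2 fold change was 1.81 ± 0.45 at 3 months and 2.33 ± 0.46 at 18 months (edgeR adjusted p = 0.00239 and 0.000171), and 2.24 at 18 months without the 2 libraries that stood apart. At 9 months 5 naive libraries spread from 1.21 to 83.7 CPM, D12 libraries lay at 23.0 to 88.5 CPM, and the gene did not pass.

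*Rab39* was 5.46 to 6.14 log2 CPM in naive libraries at 3 months (median 5.77) and 3.89 to 5.34 at D12 (median 4.54), with no overlap. At 9 months the medians were 5.75 and 3.90 and at 18 months 5.92 and 4.28, and 5 of 7 D12 libraries lay under all naive libraries at each of these ages. Its log2 fold change was -1.16 ± 0.23, -1.67 ± 0.27 and -1.31 ± 0.25 at 3, 9 and 18 months (edgeR adjusted p = 0.000183, 3.67e-06 and 8.27e-05). The 18-month value was -1.60 without the 2 libraries that stood apart. *Rab34*, which positions lysosomes, was 9.36 to 44.2 CPM in naive and 3.34 to 7.47 CPM in D12 libraries at 9 months, without overlap (log2 fold change -2.01 ± 0.46, edgeR adjusted p = 0.00114). The 18-month levels were 3.98 to 25.2 CPM in naive and 1.28 to 12.1 CPM at D12 (-1.37 ± 0.45, edgeR adjusted p = 0.0277), a call that ended without female naive replicate 1 (-0.87), female D12 replicate 3 or 4 (-1.30 and -1.25) or male D12 replicate 1 or 2 (-1.31 and -1.21).

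Also in this group, at 18 months, *Rab29*, which recruits the kinase LRRK2 to membranes, was 23.4 to 40.2 CPM in naive and 32.5 to 80.7 CPM at D12, with 6 of 7 D12 libraries above all naive libraries. It rose by 0.79 ± 0.22 on the log2 scale (edgeR adjusted p = 0.00771), and its adjusted p was 0.0508 without male D12 replicate 2. *Rab7*, of fusion between late endosomes and lysosomes, was 89.2 to 153 CPM in naive and 154 to 240 CPM at D12 at 18 months, with no overlap (0.65 ± 0.20, edgeR adjusted p = 0.0202). *Rab36*, which positions late endosomes, was at 0 in 6 of 7 naive libraries at 18 months and at 0 to 3.77 CPM at D12, and 0 to 0.578 CPM in naive and 0 to 7.77 CPM at D12 at 3 months. It passed at both ages (edgeR adjusted p = 0.0336 and 0.0250), and no fold is given, since naive levels were at the floor. At 3 months its call ended without male naive replicate 2 or 3 or male D12 replicate 3, with adjusted p of 0.0794, 0.0681 and 0.0516. *Rab7* and *Rab36* at 18 months, *Rab11a*, of recycling (18 months, log2 fold change 0.41 ± 0.14), and *Rab10* and *Rab19*, of exocytosis and the Golgi (9 months, 0.58 ± 0.19 and 1.90 ± 0.70), lie outside the naming rule and were added after their values were seen. *Rab19* at 9 months was lost without male D12 replicate 2, the library with the high microglia marker sum. *Rab7*, *Rab11a*, *Rab34* and *Rab36* at 18 months were lost without female naive replicate 1.

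*Rab32*, of lysosome-related organelles, rose at every age. It was 74.1 to 145 CPM in naive and 111 to 225 CPM at D12 at 3 months, 35.1 to 146 CPM and 169 to 331 CPM at 9 months, and 82.5 to 174 CPM and 131 to 292 CPM at 18 months. At 9 months the groups did not overlap, and at 3 and 18 months 7 of 8 and 4 of 7 D12 libraries lay above all naive libraries. The log2 fold change was 0.85 ± 0.19, 1.47 ± 0.23 and 1.06 ± 0.20 (edgeR adjusted p = 0.000870, 2.43e-06 and 7.89e-05). It was 1.21 at 18 months without the 2 libraries that stood apart, and 1.55 at 9 months without male D12 replicate 2. *Rab27a*, which docks secretory lysosomes, rose at 9 months from 3.81 to 21.4 CPM in naive to 18.3 to 44.8 CPM (1.26 ± 0.35, edgeR adjusted p = 0.00667), and did not pass without male naive replicate 2 (0.90, adjusted p = 0.137).

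**Figure D3:**
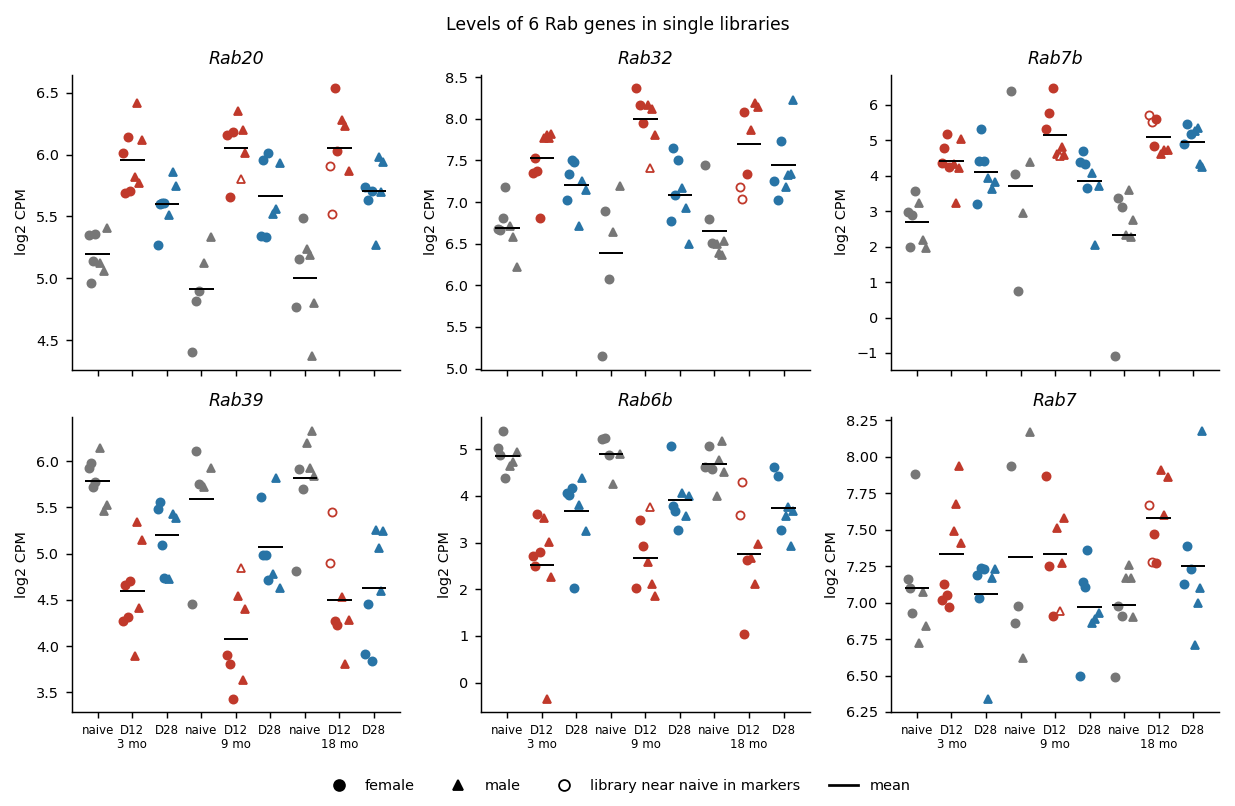
Level (y axis, log2 CPM) of 6 Rab genes in each of the 62 libraries, by age and day on the x axis, with circles for females, triangles for males, open symbols for the 3 D12 libraries nearest to naive in markers, and a bar at the mean of each age and day. *Rab20* rises at D12 without overlap at every age, *Rab39* and *Rab6b* fall, and *Rab7* clears all naive libraries at 18 months but not at 3 or 9 months.

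Of the Golgi Rab genes, *Rab6b*, a form of Rab6 best known from neurons, had the largest fall that passed at 3 months. It was 4.38 to 5.41 log2 CPM in naive libraries at 3 months (median 4.88) and -0.35 to 3.62 at D12 (median 2.76). The groups did not overlap at 3 or 9 months, and at 18 months 6 of 7 D12 libraries lay under all naive libraries, the exception being 1 of the 2 libraries that stood apart, at 4.30 log2 CPM. The log2 fold change was -2.12 ± 0.39, -2.12 ± 0.43 and -1.82 ± 0.41 at 3, 9 and 18 months (edgeR adjusted p = 3.51e-05, 0.000223 and 0.000860), and -2.52 at 18 months without both of these libraries. *Rab3a*, of synaptic vesicle release, fell at 9 months from 12.4 to 30.2 CPM in naive to 3.41 to 15.7 CPM (-1.39 ± 0.32, edgeR adjusted p = 0.00104). Beside these 2 genes, the 12 rod photoreceptor markers, all detected, summed to 1008 to 5520 CPM in naive (median 3045) and 689 to 4648 CPM at D12 (median 1240). The 12 retinal neuron markers summed to 37.2 to 166 CPM in naive (median 85.5) and 29.8 to 147 CPM at D12 (median 61.8), with *Pvalb* at a median of 0 in naive. The part of these cells in the fall of both genes was not tested.

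*Rab13*, of exocytosis and cell junctions, was low in naive microglia and rose at every age. It was 0.847 to 2.59 CPM in naive and 0 to 9.64 CPM at D12 at 3 months, 0.204 to 18.6 CPM and 1.57 to 17.2 CPM at 9 months, and 0 to 5.99 CPM and 0 to 9.49 CPM at 18 months. All groups overlapped, and at 18 months all 3 female naive libraries were at 0. At 9 months 0 of 7 D12 libraries lay above all naive libraries. The ratio of mean CPM was 3.82 at 3 months, 2.01 at 9 months and 4.47 at 18 months. The test was of the fitted change averaged over the sexes, not of this ratio (edgeR adjusted p = 0.0482, 0.0204 and 0.000948). Over single omissions the fitted log2 fold change was 1.69 to 2.11, 2.44 to 3.60 and 4.22 to 5.10, values that groups near 0 counts make unsure. The call at 3 months ended without any 1 of 13 of 15 libraries (adjusted p up to 0.128), and that at 9 months without male naive replicate 1 or 2 (0.097 and 0.113). Beside the low genes *Rab13*, *Rab36* and *Rab19*, the 11 T cell markers, with 10 at a median of 0 in naive, summed to 0 to 216 CPM in naive (median 1.63) and 3.67 to 519 CPM at D12 (median 161). The 7 monocyte markers summed to 0.846 to 114 CPM and 8.88 to 1106 CPM (medians 18.7 and 73.4), with *Chil3* and *F10* at a median of 0 on both days. Their part in these 3 results was not tested.

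The count of Rab genes that passed at 3 months was 5 without male naive replicate 2 or 3 or male D12 replicate 3, and at 9 months it was 7 without male naive replicate 2. At 18 months it was 12 without the 2 libraries that stood apart, with 11 of 11 calls kept and *Rab5c* added. Within the first collection day alone, 1, 7 and 7 Rab genes passed at 3, 9 and 18 months, of which 1, 5 and 3 were among those of all libraries. Within the second day 4, 13 and 9 passed, of which 4, 9 and 8 were among them. In these single-day fits some groups are 1 library. Shares of all genes are not given beside any count of this paragraph with libraries left out or moved. Those counts are therefore not read as results about Rab genes. With the library that carries labels of both days placed at D12, 9 passed at 18 months, and *Rab11a* and *Rab34* were lost. Against a log2 fold change of 1 instead of 0, 1, 2 and 2 passed (all genes, 3.35%, 4.14% and 3.26%).

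Both sexes had the same sign of the D12 change in 8 of 8, 11 of 11 and 11 of 11 of the genes that passed at 3, 9 and 18 months, a choice that rests on the average of the sexes and so favors a shared sign. At 18 months the log2 fold change of *Rab20* was 0.88 ± 0.25 in females and 1.21 ± 0.24 in males, and that of *Rab6b* was -1.48 ± 0.55 and -2.15 ± 0.60. *Rab32* changed by 0.50 ± 0.28 in females and 1.63 ± 0.28 in males, and *Rab39* by -0.76 ± 0.34 and -1.87 ± 0.36. Without the 2 D12 libraries that stood apart, the female values were 1.14 ± 0.28 for *Rab20*, -2.88 ± 0.72 for *Rab6b*, 0.79 ± 0.33 for *Rab32* and -1.32 ± 0.42 for *Rab39*, so that the *Rab6b* estimate then lay below that of males. Without female naive replicate 1 they were 0.72 ± 0.27, -1.54 ± 0.60, 0.82 ± 0.32 and -1.01 ± 0.36. *Rab7*, which did not pass at 3 months, was there at -0.28 ± 0.26 in females and 0.76 ± 0.29 in males. The difference between the sexes at 1 age was not tested.

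At D28 the changes of Rab genes were fewer. At 3 months 0 of 55 passed edgeR's quasi-likelihood test (0%, beside 2.78% of all genes, 1.99% higher and 0.788% lower). There 9 had an unadjusted p under 0.05, and 1 passed by DESeq2. Unadjusted and DESeq2 counts, and counts with libraries left out or moved, here and below, are not read as results about Rab genes. Shares of all genes are mostly not given beside them. At 9 months 1 passed (1.82%, beside 4.00% of all genes, 2.47% higher and 1.52% lower): *Rab20* was 20.7 to 39.7 CPM in naive and 39.7 to 64 CPM at D28, with 6 of 7 D28 libraries above all naive libraries (log2 fold change 0.72 ± 0.19, edgeR adjusted p = 0.0177). This call ended without male naive replicate 1 or 2, female naive replicate 1 or male D28 replicate 4, with adjusted p of 0.0721, 0.0899, 0.0584 and 0.0558. The count of 1 became 0 without each of male naive replicate 2, female naive replicate 1 and male D28 replicate 4. It became 2 without female D28 replicate 2 or male D28 replicate 3, 3 without female naive replicate 3 or female D28 replicate 1, and 4 without female naive replicate 2 or male naive replicate 1.

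At 18 months 5 of 55 passed at D28 (9.09%, beside 4.82%), 4 higher and 1 lower (all genes, 3.14% and 1.68%). *Rab7b* was 18.5 to 43.8 CPM at D28, above all naive libraries (2.31 ± 0.46, edgeR adjusted p = 0.000668). *Rab20* was 38.2 to 62.5 CPM, with 6 of 7 libraries above all naive libraries (0.67 ± 0.17, edgeR adjusted p = 0.0104). *Rab39* was 13.9 to 37.8 CPM, and 4 of 7 libraries lay under all naive libraries (-1.26 ± 0.25, edgeR adjusted p = 0.000540). *Rab32* was 130 to 300 CPM, a range that overlaps naive (0.77 ± 0.20, edgeR adjusted p = 0.0118), and did not pass without female D28 replicate 4 (0.66, adjusted p = 0.059). *Rab13* was 0.436 to 6.07 CPM, with a ratio of mean CPM of 2.55. It passed by its fitted change, which is not this ratio (edgeR adjusted p = 0.0288). That call ended without any 1 of the 3 female naive libraries or female D28 replicate 4 (edgeR adjusted p of 0.0665 to 0.211). The count was 3 without female D28 replicate 4. With male replicate 4, which carries labels of both days, placed at D12, 4 passed and *Rab32* was lost. *Rab6b* did not pass at D28 at any age (-1.06 ± 0.39, -0.87 ± 0.42 and -0.88 ± 0.39 at 3, 9 and 18 months, edgeR adjusted p = 0.152, 0.252 and 0.211), although its 7 D28 libraries at 3 months lay under all naive libraries. It lies outside the naming rule for D28 and was added after its values were seen. D12 and D28 share their naive libraries.

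Whether the D12 change differs at 18 months was tested as an age by day interaction, the D12 change at 18 months minus that at 3 months, at an adjusted p under 0.1. In females 0 of 50 Rab genes passed edgeR's quasi-likelihood test with Benjamini-Hochberg adjustment over 12063 genes, beside 0.323% of all genes (39), 0.0912% higher and 0.232% lower. At an unadjusted p under 0.05 there were 8 Rab genes (16%, beside 14.5% of all genes), and DESeq2 passed 1. In males 0 of 48 passed, beside 0.0334% of all genes (4), 0.0167% higher and 0.0167% lower, with 1 at an unadjusted p under 0.05 and 0 by DESeq2. With the sexes averaged in the fit over all libraries, 0 of 55 passed, beside 0.155% of all genes, 0.0663% higher and 0.0883% lower, with 5 at an unadjusted p under 0.05 and 0 by DESeq2.

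Without passing the test gene by gene, most Rab values in females lay on the higher side at 18 months. The median difference over the 50 genes was 0.62 on the log2 scale, against 0.09 over all 12063 genes, and 43 of 50 were above 0, against 6585 of 12063. Without the 5 genes that had a group at or under 3 counts in every library, the median was 0.53, with 38 of 45 above 0. In males the median was 0.05 over 48 Rab genes and -0.01 over all genes, and 27 of 48 were above 0. The genes share libraries, so these counts are a description of the libraries and not a test. The female values were above 0 in 9 of 9 genes of late endosomes, lysosomes and autophagy (median 0.74), 10 of 12 of the ER and Golgi (0.54), 6 of 7 of early endosomes and phagosomes (0.67), 6 of 7 of recycling (0.63), 7 of 8 of exocytosis (0.63) and 4 of 4 others (0.74). The exception was the group of lysosome-related organelles, with 1 of 3 above 0 and a median of -1.60.

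**Figure D4:**
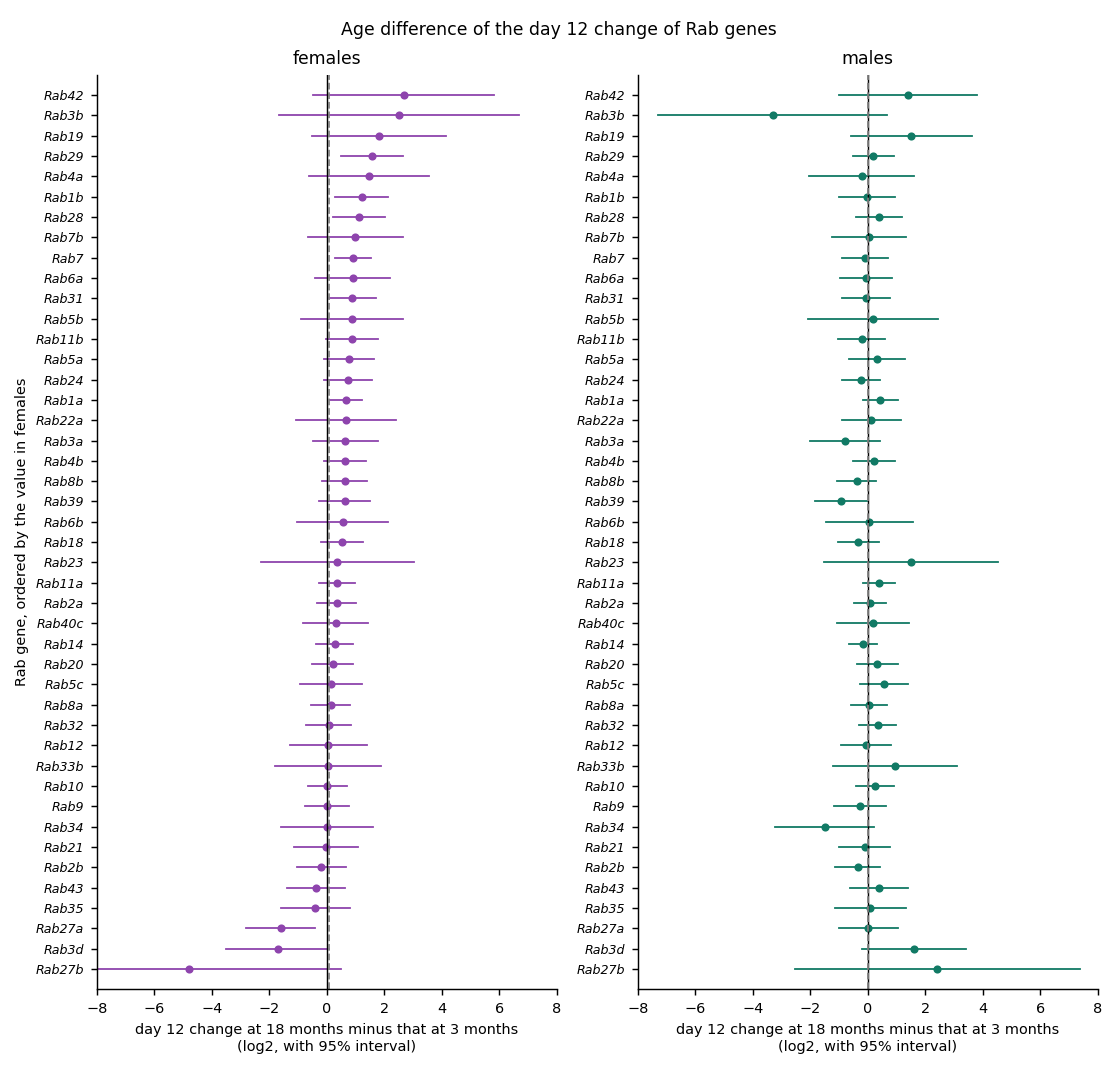
D12 change at 18 months minus that at 3 months (x axis, log2, points with 95% intervals) of 44 Rab genes in females (left) and males (right), in both panels ordered by the value in females. The dashed line is the median of all genes tested, and the female interval of *Rab27b* runs past the axis. In females 37 of the 44 points and in males 26 lie above 0, and none passes the adjusted test.

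The 3 Rab genes with the smallest p in females were *Rab7*, *Rab29* and *Rab27a*, and none passed. *Rab7* was 7.16, 7.10, 6.93 and 7.88 log2 CPM in 3-month-old naive females and 7.02, 7.13, 7.05 and 6.97 at D12. At 18 months it was 6.49, 6.98 and 6.91 in naive and 7.67, 7.28, 7.47 and 7.27 at D12. It was thus within the naive range at 3 months and above it at 18 months, and the difference was 0.91 (95% interval 0.29 to 1.53, edgeR adjusted p = 0.190). *Rab29* was 5.71, 4.85, 5.6 and 5.32 in 3-month-old naive females and 5.17, 5.58, 3.82 and 5.09 at D12. At 18 months it was 4.63, 4.57 and 5.24 in naive and 5.68, 5.76, 6.16 and 6.34 at D12, without overlap. The difference was 1.57 (0.49 to 2.64, edgeR adjusted p = 0.193).

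*Rab27a* went the other way. It was 4.12, 3.36, 4.77 and 2.83 log2 CPM in 3-month-old naive females and 4.49, 4.77, 4.76 and 3.91 at D12, against 5.68, 4.78 and 4.21 in naive and 3.59, 3.58, 4.55 and 4.08 at D12 at 18 months. The difference was -1.60 (-2.81 to -0.39, edgeR adjusted p = 0.221). Without the 2 libraries that stood apart, the differences of *Rab7*, *Rab29* and *Rab27a* were 0.83, 1.77 and -1.31 (edgeR adjusted p = 0.262, 0.163 and 0.386). Over 15 single omissions these differences were 0.66 to 1.02, 1.31 to 1.82 and -2.03 to -1.11. DESeq2 passed *Rab7* (0.89, adjusted p = 0.0898), and the fit over all libraries passed *Rab29* (1.54, edgeR adjusted p = 0.0828).

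In males *Rab39*, *Rab3d* and *Rab34* had the smallest p, and none passed. *Rab39* was 6.14, 5.46 and 5.53 log2 CPM in 3-month-old naive males and 3.89, 5.34, 4.41 and 5.15 at D12. At 18 months it was 6.2, 5.93, 6.33 and 5.84 in naive and 4.53, 3.81 and 4.28 at D12. It fell below naive at both ages, and the difference was -0.94 (95% interval -1.84 to -0.03, edgeR adjusted p = 1). *Rab3d*, of secretory granules, and *Rab34* differed by 1.60 and -1.50 (edgeR adjusted p = 1 for each). In the sex average the smallest p belonged to *Rab29* (0.87 ± 0.30), *Rab1a* (0.55 ± 0.19) and *Rab28*, a Rab best known from photoreceptors (0.76 ± 0.29), with edgeR adjusted p of 0.219, 0.230 and 0.294.

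The depth and the number of libraries limit what these tests can show. The 95% interval of the difference lay wholly between -1 and 1 for 7 of 50 Rab genes in females and for 15 of 48 in males, so that for the others a change in the D12 response by 1 or more on the log2 scale was not excluded. The median distance from the estimate to the end of its interval was 1.12 in females and 0.94 in males.

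The female minus male difference of the age by day interaction was tested itself. By edgeR's quasi-likelihood test 0 of 55 Rab genes passed, beside 0% of all genes, with 5 at an unadjusted p under 0.05 and 0 by DESeq2. The median over the Rab genes was 0.44 and over all genes 0.08. The smallest p values were those of *Rab3d* (-3.32 ± 1.19, edgeR adjusted p = 0.835), of *Rab39* (1.54 ± 0.68, 0.849, and 0.97 without the 2 libraries that stood apart) and of *Rab25*, for which no fold is given at its levels near 0.

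The female pattern depended on the libraries in it. Without replicates 1 and 2 of 18-month-old females at D12 the median over 51 Rab genes was 0.43, against -0.01 over all genes, with 37 above 0 and 0 passed. Within the second collection day alone it was 0.36 over 49 genes against -0.05, with 32 above 0 and 0 passed. Within the first day alone it was 1.22 over 52 genes against 0.67 over all genes, and 20 Rab genes passed, 17 higher and 3 lower, beside 32.8% of all genes in that fit. On that day 18-month-old female naive was a single library, replicate 1, and 3-month-old female D12 was a single library, so that the spread there was taken from the other groups. Without that naive library the median was 0.40 in the full set of females.

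**Figure D5:**
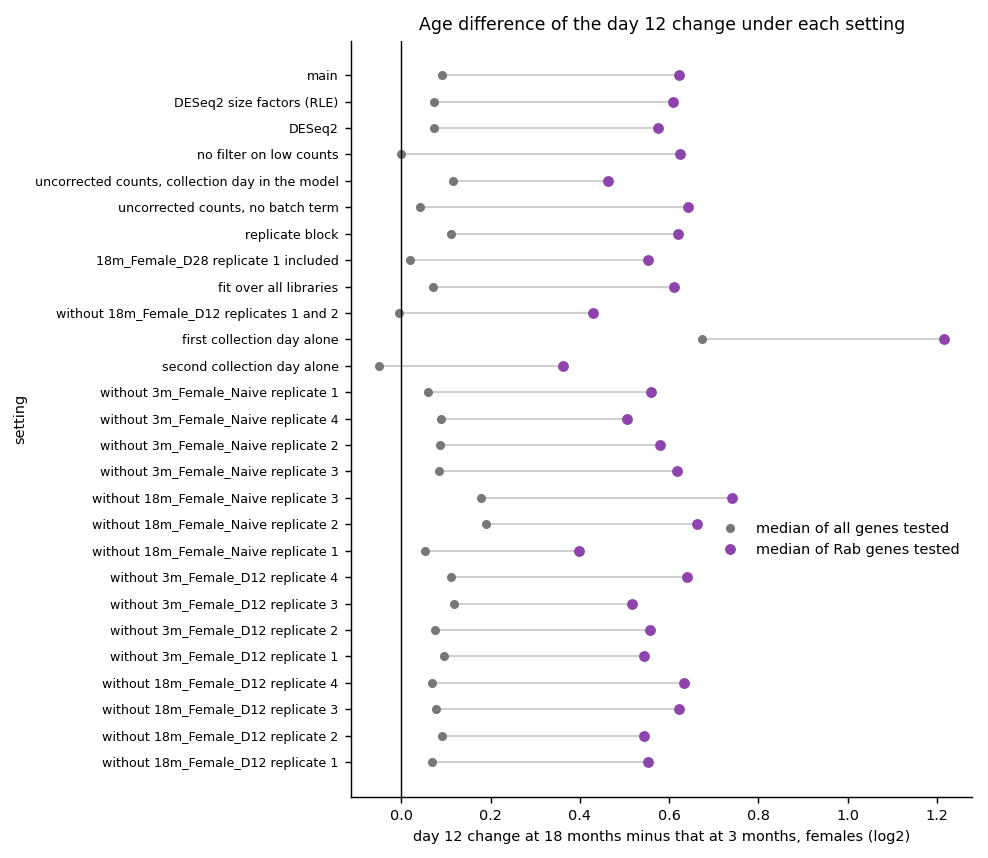
Median difference of the D12 change between 18- and 3-month-old females (x axis, log2) over the Rab genes (purple) and over all genes tested (grey), for the reported setting (main) and each alternative (y axis). The Rab median lies to the right of the median of all genes in every setting, at 0.36 for the second collection day and 1.22 for the first.

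Other age comparisons passed no Rab gene by edgeR's quasi-likelihood test. The D12 change at 9 months minus that at 3 months passed 0 of 55 (all genes 0.0368%, with 0.0294% higher and 0.00736% lower), with 6 at an unadjusted p under 0.05 and 0 by DESeq2, and a median of 0.08. *Rab3a* (-1.01 ± 0.42) and *Rab19* (2.17 ± 0.90) were among the 3 smallest p there, with edgeR adjusted p of 0.678 and 0.661, as was *Rab37*, near 0 in naive. The D28 change at 18 months minus that at 3 months passed 0 of 55 (all genes 0%), with 5 at an unadjusted p under 0.05 and 0 by DESeq2. Its median was 0.25, and its smallest p values belonged to *Rab37*, *Rab26* and *Rab3c*, whose highest medians in the groups compared were 0.289, 1.18 and 1.09 CPM. In naive microglia, 18 against 3 months passed 0 of 55 (all genes 0.110%, with 0.0957% higher and 0.0147% lower), with 5 at an unadjusted p under 0.05 and 0 by DESeq2, and a median of -0.13, with 39 of 55 below 0, against -0.01 over all genes, with 6925 of 13584 below 0. At D12, 18 against 3 months passed 0 of 50 in females (all genes 0.116%, with 0.058% higher and 0.058% lower; 4 at an unadjusted p under 0.05, 1 by DESeq2) and 0 of 48 in males (0.0668%; 2 and 0). In females the medians were 0.19 for Rab genes and 0.04 for all genes, and DESeq2 passed *Rab1a* (0.63, adjusted p = 0.0239).

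Genes of the proteins that switch, carry and read Rab proteins also changed in both directions at D12. Of 126 genes tested in the lists of GEFs, GAPs, effectors and of prenylation, escort and GDI factors, 16 passed at D12 at 3 months (8 higher, 8 lower), 16 at 9 months (7 and 9) and 18 at 18 months (6 and 12), or 12.7%, 12.7% and 14.3%, beside 16.6%, 18.4% and 15.6% of all genes tested. *Dennd6a*, a GEF, had the smallest p at each age and was lower (-1.24 ± 0.20, -1.39 ± 0.23 and -1.10 ± 0.21, edgeR adjusted p = 4.41e-06, 5.91e-06 and 0.000111). Of 36 GEFs, 16.7%, 11.1% and 25% passed at 3, 9 and 18 months, beside the 16.6%, 18.4% and 15.6% of all genes. By direction 5, 4 and 7 were lower (all genes, 7.23%, 7.91% and 6.02%) and 1, 0 and 2 higher (9.42%, 10.5% and 9.53%). *Rabac1*, a Rab acceptor of the Golgi, was lower at all 3 ages (-0.66 ± 0.19, -1.22 ± 0.22 and -0.96 ± 0.20), as was *Evi5*, a GAP (-0.93 ± 0.23, -1.44 ± 0.26 and -0.73 ± 0.24). *Rin3*, a GEF of Rab5, was lower at 3 and 18 months (-0.85 ± 0.29 and -1.45 ± 0.31).

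Among effectors, *Myo5a*, the myosin that carries Rab27a vesicles, was higher at all 3 ages (1.73 ± 0.31, 0.96 ± 0.35 and 1.36 ± 0.32), as was *Rufy3* (1.02 ± 0.20, 0.78 ± 0.23 and 0.69 ± 0.21). *Vps41*, of the tether that fuses endosomes with lysosomes, was higher at 18 months (0.77 ± 0.19). At D28 1, 1 and 3 of the 126 passed at 3, 9 and 18 months (0.794%, 0.794% and 2.38%). All genes passed more often at each age, at 2.78%, 4% and 4.82%. The genes of these lists that passed at D28 included *Dennd6a* (-0.74 ± 0.21), *Tbc1d8* (0.93 ± 0.27) and *Myo5a* (1.59 ± 0.32). In the age by day interaction 2 of 121 passed in females, beside 0.323% of all genes: *Golga2*, a Golgi tether (-2.54 ± 0.60), and *Rabep2*, an effector of Rab5 (-2.01 ± 0.48), with an edgeR adjusted p of 0.0991 each. In males 0 of 120 passed, with 3 at an unadjusted p under 0.05. The median interaction over these lists was -0.06 in females and -0.12 in males. These lists were not refitted under the alternatives.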

How the data were processed

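RNA-seq libraries of sorted retinal microglia were compared by age, sex and day. The authors amplified cDNA with SMART-Seq, sequenced single-end reads, aligned them to mm10 with STAR 2.7.8a and counted them per gene with featureCounts. The deposited tables hold these counts for 64 libraries and, for 63, counts that the authors corrected for collection day with ComBat_seq. The corrected counts were used here. An 18-month-old female D28 library (replicate 1) was left out by the rule that defines the gene set, and a 9-month-old male D28 library absent from the corrected table was not used here. A correction made before the test can understate the spread.

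Counts were scaled by TMM and filtered by filterByExpr in edgeR 4.0.16 (R 4.3.3). Quasi-likelihood models held 1 mean per group and no batch term, over all 62 libraries, or over the 3- and 18-month-old libraries of 1 sex for age by day in that sex. Adjusted p is Benjamini-Hochberg over all genes tested, with thresholds of 0.05 for a day against naive and 0.1 for age. Steps were tested on simulated data. Totals set the precision, and amplified reads are not independent molecules, so the floor of 3 counts covers counting error only. Libraries are single retinas, and the methods give the other eye of each mouse to cytometry or staining, so p-values measure the spread between mice. Lengths are of GENCODE M21 transcripts. Named genes are up to 5 per direction with the smallest p among those that passed, or the 3 with the smallest p where an age by day test passed none. The genes and lists were chosen with earlier results of these data known. Alternatives were DESeq2 1.42.0 and its size factors, no filter on low counts, uncorrected counts, a replicate block, other library sets and fits, a test against a log2 fold change of 1, and each library left out, and 3 more chosen after the data were seen (the 2 libraries that stood apart left out, and each collection day alone).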

Additional observations from a re-analysis of the deposited data

Results flagged for a closer look

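Within groups of 4 libraries, 22 of 198 tests of 22 named Rab genes (11.1%) found the highest or lowest library farther from the others than the 95% limit of Dixon's test, where chance gives about 1 in 20. In 11 of the 22 the other 3 libraries were tied at 0 counts, which fixes the outcome, and the remaining 11 are 5.56% of all 198 tests. That base still holds the tied groups and any groups without spread. The share among groups where the test could work is therefore higher and was not computed. Values are log2 CPM. In the libraries that stood apart in markers, *Rab13* was 1.03 in 9-month-old male D12 replicate 2, and *Rab1a* was 7.79 in 18-month-old female D12 replicate 2 and *Rab37* -1.09 in replicate 1. In the library with labels of both days, 18-month-old male D28 replicate 4, *Rab32* was 8.23, the highest of its group. In 18-month-old male naive replicate 2, whose T cell marker sum was 216 CPM, *Rab34* was 2.58, *Rab36* 0.60 and *Rab37* -0.01. In 3-month-old male D12 replicate 2, *Rab1a* was 7.38 and *Rab19* -1.09. In 3-month-old females, *Rab20* was 5.27 in D28 replicate 1, *Rab6b* 2.03 in D28 replicate 4, *Rab3a* 3.15 in D12 replicate 3, and *Rab37* 1.32 in naive replicate 4. In 18-month-old males at D28, *Rab3d* was 2.74 in replicate 2, and *Rab3c* 1.32 and *Rab25* 0.99 in replicate 3. Further values of genes near 0 were *Rab25* at 1.83 and 1.58 in 3-month-old female D12 replicate 4 and D28 replicate 3 and 0.71 in 9-month-old female D28 replicate 2, and *Rab26* at 1.18 and 1.88 in 3-month-old female D12 replicate 2 and D28 replicate 3 and -0.35 in 18-month-old female D12 replicate 3.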

How the results depend on the processing

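Of the named gene results, 49 in number, 1333 of 1460 values under alternatives kept direction and side of the threshold. Of the rest, 120 were no longer past it, 6 newly passed it and 1 reversed: *Rab3d* in the male age by day test was -0.63 within the first collection day alone. All 120 concern results that had passed. The named age by day and female minus male results passed none, so they had no pass to lose. They are part of the 1460, so the pooled count says little about how stable the passed results were. Counts of Rab genes that passed at D12 were 1, 2 and 2 at 3, 9 and 18 months against a log2 fold change of 1, 1, 7 and 7 within the first collection day, and 4 at 3 months within the second. At D28, 3 months gave 1 by DESeq2, 2 without the filter, 3 in the fit over that age and 1 within the second day, against 0. At 9 months it gave 3 by DESeq2, 2 with uncorrected counts and collection day in the model, 0 with uncorrected counts and no batch term, 2 without the library with labels of both days, 0 against a log2 fold change of 1 and 0 in the fit over that age, against 1. At 18 months it gave 3 with uncorrected counts and no batch term and 0 against a log2 fold change of 1, against 5. Within the first day alone, where several groups are 1 library, tests that passed 0 otherwise passed 4 (D12, 18 against 3 months, sexes averaged), 3 (D12, 9 against 3), 5 (D28, 18 against 3), 6 (female minus male), 8 (18 against 3 in naive) and 20 (D12, 18 against 3, females). Shares of all genes are not given beside these counts or the others of this section. None of them is read as a result about Rab genes. The female age by day test passed 1 by DESeq2 and 1 in the fit over all libraries. The direct comparison of ages at D12 passed 1 by DESeq2 and 1 within the second day in females and 1 without the filter in males. The cause was not tested. With each library left out in turn, counts ran from 5 to 8, 7 to 13 and 8 to 12 at D12 and from 0 to 0, 0 to 4 and 3 to 6 at D28 at 3, 9 and 18 months, and were 0 in each age by day, female minus male and age test. Replicate numbers did not pair the libraries: the mean correlation of deviations was -0.01 over 464 pairs with the same number and 0.00407 over 1348 others. With a replicate block 6, 10 and 10 Rab genes passed at D12 and 0, 1 and 5 at D28, and 0 in the age by day tests of females and males, where the female median was 0.62. With the 18-month-old female D28 library that the rule leaves out, the female median was 0.55. Genes under about 2 CPM in a group, such as *Rab13* and *Rab36*, are limited by depth.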
